A study of Mus musculus with 6 samples.

Results

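The genes described here are the aminoacyl-tRNA synthetases of the mouse, the enzymes that join each amino acid to its transfer RNA. They were chosen by name: 20 genes for the cytosolic enzymes, 16 for the mitochondrial enzymes and 3 for the scaffold proteins of the multisynthetase complex, together 39 of 11236 gene symbols listed. All 39 were listed and all 39 passed the filter on low values. BUMPT cells, a line of mouse renal proximal tubular epithelial cells, were compared in 2 groups of 3 RNA sequencing libraries. The first group carries the label NC, which is not spelled out. The second carries the label tRF-Val, for tRF-Val-TAC-004, which its name places among the valine transfer RNA fragments. Genotype, dose and time are not stated for either group, nor is it stated if cells received the fragment itself or an inhibitor of it. The stated purpose was to find a target of the fragment in apoptosis. Valine transfer RNA is the substrate of the valine enzymes Vars and Vars2, which are therefore given first.

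Each synthetase recognises its own amino acid and its own set of transfer RNAs, and the charged transfer RNA is carried to the ribosome by elongation factor eEF1A. Nuclear genes encode separate cytosolic and mitochondrial enzymes for most amino acids, while Gars (glycine) and Kars (lysine) each serve both compartments from 1 gene. Several cytosolic enzymes are held together by the scaffolds Aimp1, Aimp2 and Eef1e1 in the multisynthetase complex. Many cytosolic enzymes are targets of ATF4, the transcription factor of the amino acid response, which binds the CARE element in their promoters.

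The authors gave 1 abundance value per transcript and library, and values were added over the transcripts of a gene. The unit is not stated; abundances from StringTie are per transcript length, so levels are compared between genes on that understanding. These sums are called gene values here and are given in the order of replicates 1, 2 and 3. Depth in reads is unknown. The summed values of mouse transcripts ran from 387611 to 389669 for NC and from 421202 to 444539 for tRF-Val. NC 3 stood apart, with 17.5% of its values in mitochondrially encoded transcripts against 3.16% to 6.58% in the other libraries, and many fold changes are also given without it. Of 11 proximal tubule markers 3 were listed (Aqp1, Pax2 and Pax8), summing to 76.4 to 127 in NC and 77.7 to 116 in tRF-Val; Lrp2, Cubn and Slc34a1 were not listed. All 6 epithelial markers were listed and summed to 422 to 652 in NC and 762 to 893 in tRF-Val. Leukocyte markers summed to 8.29 to 23.5 in NC and 34.1 to 40.9 in tRF-Val over the 4 of 10 that were listed (Cd3e, Cd68, Lyz2 and Cd14), and Ptprc was not among them. Listed at low levels were also 2 of 7 fibroblast markers (0.850 to 1.26 in NC and 1.01 to 1.76 in tRF-Val), 1 of 6 endothelial markers, Cdh5 (6.25 to 8.03 and 2.72 to 5.02), and 1 of 5 joint markers, Sox9 (6.32 to 7.95 and 6.14 to 8.83). The part of these differences in the results was not tested. No label ties the libraries to separate cultures. The p-values therefore rest on the spread between libraries, and that spread may be technical.

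No synthetase or scaffold gene passed the test between the groups. With limma's moderated test on log2(value + 1), adjusted by the Benjamini-Hochberg method over 10405 genes at a threshold of 0.05, 0 of 39 members were called, against 0.259% of all genes tested (0.0577% higher and 0.202% lower in tRF-Val). At an unadjusted p under 0.05 there were 7 members with higher and 3 with lower values in tRF-Val, together 10 of 39, against 27.8% of all genes (12.2% higher and 15.6% lower), so the share of members was near the background. The groups did not overlap in 12 of 39 members, 7 higher and 5 lower in tRF-Val, against 42.5% of all genes (20.3% higher and 22.1% lower). The 95% interval of the fold change lay inside 2-fold in both directions in 22 of 39 members, against 50.6% of all genes. Each fold change is the tRF-Val mean less the NC mean of log2(value + 1), a scale that understates the change of low genes.

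Neither valine enzyme passed. Vars encodes the cytosolic valyl-tRNA synthetase, a class I enzyme that in animals binds the eEF1 elongation factor complex. The gene (ENSMUSG00000007029.16) occupies bases 35000987 to 35016322 of chromosome 17 (GRCm38, plus strand), and 2 protein-coding transcripts were listed. Its gene value was 43.1, 42.9 and 18.2 for NC 1, 2 and 3, against 37.5, 37.3 and 38.5 for tRF-Val 1, 2 and 3. The tRF-Val libraries thus lay between NC 3 and the other NC libraries, and the groups overlapped. The means were 34.7 ± 14.3 (SD, n = 3) and 37.8 ± 0.653 (SD, n = 3). The log2 fold change was 0.22 (SE 0.341, 95% interval -0.61 to 1.04), with an adjusted p of 0.690 by limma. Without NC 3 the fold change was -0.18 with an adjusted p of 0.166, so the sign rested on that library.

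The transcripts of Vars, one with 30 exons and 4137 bases and the other with 29 exons and 4048 bases, traded places between libraries of 1 group. The 30-exon transcript held 52.0%, 80.1% and 33.6% of the gene value for NC 1, 2 and 3, against 34.5%, 88.2% and 60.5% for tRF-Val 1, 2 and 3. The shares of the groups overlapped, and neither transcript passed alone.

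Vars2 encodes the mitochondrial valyl-tRNA synthetase. The gene (ENSMUSG00000038838.15) occupies bases 35655634 to 35667592 of the same chromosome (minus strand), and 1 transcript of 4425 bases and 29 exons was listed. It had the lowest mean level of the 39 members, with gene values of 1.43, 2.27 and 1.67 in NC 1, 2 and 3 and of 1.43, 0.274 and 1.02 in tRF-Val 1, 2 and 3. The groups touched at NC 1 and tRF-Val 1, and tRF-Val 2 was lowest. The log2 fold change was -0.59 (SE 0.279, 95% interval -1.26 to 0.09), with an adjusted p of 0.223 by limma, and the fold change was -0.32 without tRF-Val 2. Levels this low leave little precision, and with a pseudocount of 0.1 the fold change was -1.11 with an adjusted p of 0.263. Vars was on average 26.9 times as abundant as Vars2.

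**Figure D1:**
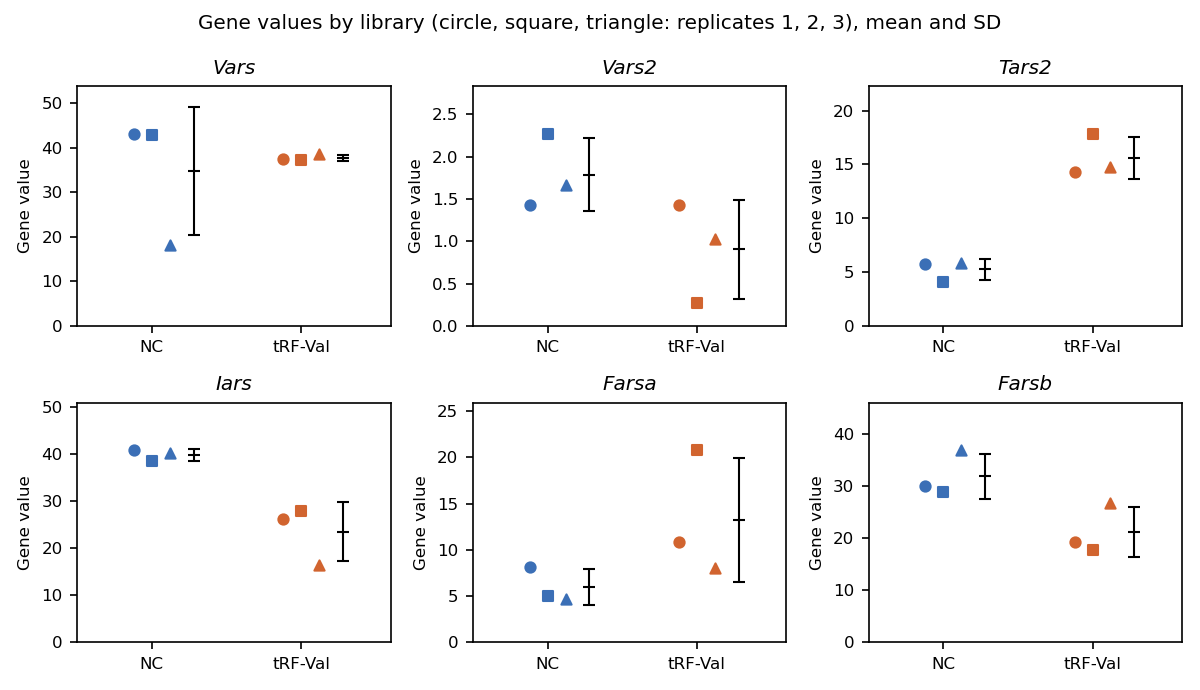
Gene values (authors' abundance units, linear axis from 0) of 6 synthetase genes in the NC (blue) and tRF-Val (orange) libraries; symbols stand for replicates 1, 2 and 3, and the bar gives the mean and SD of 3 libraries. NC 3 is the low Vars point at 18.2, while the 3 Tars2 points of tRF-Val, from 14.3 to 17.8, lie above all NC points.

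Across the 20 cytosolic enzymes the fold changes centred on 0. Of these, 12 had positive and 8 negative fold changes, from -0.77 to 1.24, with a median of 0.02 against 0.01 over all genes tested. The sign of this median turned with scaling: it was -0.23 after rescaling without mitochondrially encoded transcripts, which moved the median of all genes to -0.20, and -0.15 with quantile normalization. Summed over the 20 genes the values were 1428, 1470 and 1298 for NC 1, 2 and 3, against 1361, 1400 and 1414 for tRF-Val 1, 2 and 3, so the sums overlapped. As a share of all mouse values they were 0.369%, 0.379% and 0.333% for NC and 0.323%, 0.315% and 0.325% for tRF-Val. The shares did not overlap while the sums did; the total of mouse values was larger in each tRF-Val library.

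The most abundant members were Gars, which charges glycine transfer RNA, Nars (asparagine), Kars (lysine), Rars (arginine) and Aimp1. Gars measured 163, 177 and 128 across NC and 165, 175 and 186 across tRF-Val (log2 fold change 0.18). Kars measured 146, 147 and 95.6 across NC and 140, 156 and 143 across tRF-Val (log2 fold change 0.20). In both genes NC 3 was the lowest library and the other 5 lay close together. Without NC 3 the fold changes were 0.045 for Gars and -0.0037 for Kars. Rars measured 125, 134 and 177 across NC and 120, 126 and 133 across tRF-Val, and here NC 3 was the highest. Nars measured 149, 159 and 153 across NC and 129, 113 and 136 across tRF-Val, so each tRF-Val library lay below each NC library, with a log2 fold change of -0.29 and an adjusted p of 0.212 by limma. The order of the means of Nars, Kars and Rars, from 136 to 139.8, does not separate these genes beyond the spread between libraries.

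**Figure D2:**
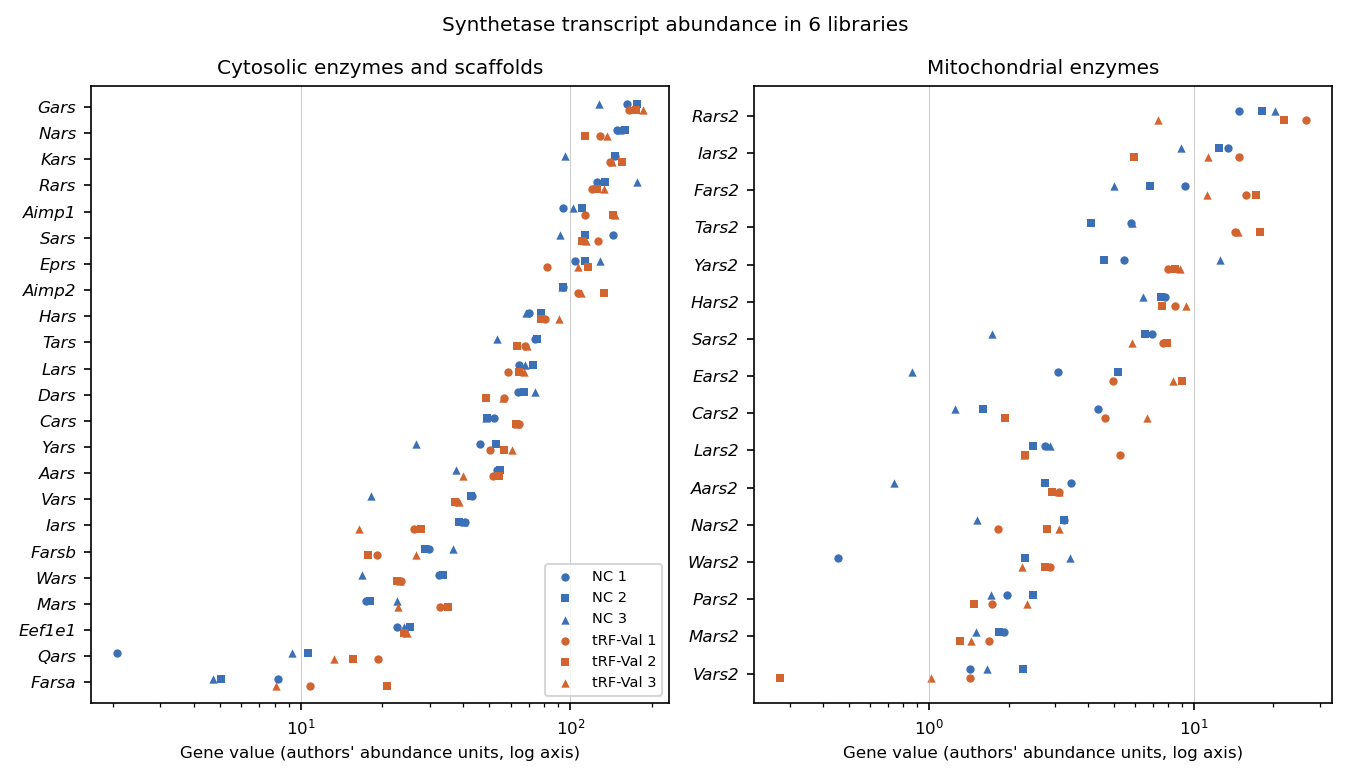
Gene values (log axis) of the cytosolic enzymes and scaffolds, left, and of the mitochondrial enzymes, right, ordered by mean level; colours stand for groups and symbols for replicates. Cytosolic enzymes reach from a mean of 9.59 (Farsa) to 166 (Gars), and mitochondrial ones from 1.35 (Vars2) to 18.2 (Rars2).

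The Kars value was divided mainly between a pair of transcripts. The 14-exon transcript of 2008 bases held 50.7%, 47.6% and 61.1% of the gene value for NC 1, 2 and 3, against 48.8%, 25.2% and 22.5% for tRF-Val 1, 2 and 3. The 15-exon transcript of 2131 bases held 45.0%, 46.5% and 35.2% for NC and 40.6%, 61.6% and 71.0% for tRF-Val. The shares in tRF-Val 1 lay within the NC range and those in tRF-Val 2 and 3 outside it. Over single transcripts, 0 of 60 tested member transcripts passed (smallest adjusted p 0.168 by limma), against 1.14% of all 16320 transcripts tested.

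Iars, the isoleucine enzyme of the multisynthetase complex, had the lowest fold change of the cytosolic enzymes. It measured 40.7, 38.4 and 40.1 across NC and 26.3, 27.9 and 16.4 across tRF-Val. The NC libraries, NC 3 included, lay close together and above each tRF-Val library. The log2 fold change was -0.77 (SE 0.221), with an unadjusted p of 0.0123 and an adjusted p of 0.110 by limma. It was -0.43 with trends against length and GC content taken out. Among its 3 listed transcripts the 33-exon one measured 1.55, 12.4 and 23.5 across NC and 1.11, 0 and 0.597 across tRF-Val, which shows how unevenly the abundance was divided between transcripts within NC. The transcripts also differed in direction. The log2 fold change was -2.65 for the 33-exon one, -1.07 for the 4396-base one and 0.77 for the 4426-base one. The last measured 16.7, 4.49 and 4.69 across NC and 10.3, 22.6 and 9.37 across tRF-Val.

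Phenylalanyl-tRNA synthetase is built of an alpha and a beta subunit, encoded by Farsa and Farsb, and their fold changes had opposite signs. Farsa measured 8.18, 5.05 and 4.70 across NC and 10.8, 20.8 and 8.04 across tRF-Val, with a log2 fold change of 0.96 (adjusted p 0.164 by limma). It was 0.60 without tRF-Val 2 and 0.54 with trends against length and GC content taken out. Farsb measured 29.9, 28.9 and 36.8 across NC and 19.2, 17.8 and 26.6 across tRF-Val, with a log2 fold change of -0.58 (adjusted p 0.137 by limma). Neither subunit passed. The ratio of Farsa to Farsb was 0.274, 0.175 and 0.128 for NC and 0.564, 1.17 and 0.302 for tRF-Val; each tRF-Val ratio was above each NC ratio, and tRF-Val 2 was the highest. This ratio was singled out after its values were seen. The 1826-base Farsa transcript measured 1.06, 0.0342 and 0.997 across NC and 0.365, 10.8 and 0.141 across tRF-Val. The 1795-base one measured 7.12, 5.02 and 3.70 across NC and 10.4, 9.96 and 7.90 across tRF-Val. The 18-exon Farsb transcript had a log2 fold change of -0.13, the 17-exon one -1.42 and the 11-exon one -1.25.

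Other cytosolic enzymes with an unadjusted p under 0.05 were Cars, Mars and Dars. Cars (cysteine) measured 52.0, 49.0 and 48.8 across NC and 64.3, 63.0 and 63.6 across tRF-Val, with little spread in either group, and its log2 fold change was 0.34 (adjusted p 0.137 by limma). Mars (methionine) measured 17.4, 18.0 and 22.8 across NC and 32.8, 35.1 and 22.9 across tRF-Val, so tRF-Val 3 was level with NC 3. Of the NC 3 value of Mars, 78.9% came from a short transcript of 621 bases and 6 exons, against 27.5% and 41.4% in NC 1 and 2. Dars (aspartate) measured 63.9, 67.4 and 73.6 across NC and 56.5, 48.5 and 56.0 across tRF-Val, with a log2 fold change of -0.34. With trends against length and GC content taken out, Cars was at 0.25, Mars at 0.31 and Dars at -0.16. After rescaling without mitochondrially encoded transcripts, which moved the median of all genes by -0.21, Cars was at 0.092, Mars at 0.36 and Dars at -0.60. Qars (glutamine), at an unadjusted p of 0.0535, had the widest interval of the cytosolic enzymes, with values of 2.08, 10.6 and 9.28 for NC and 19.3, 15.6 and 13.3 for tRF-Val. Its fold change of 1.24 was 0.63 without NC 1, the library with the lowest value.

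Wars, the tryptophan enzyme and a gene known to respond to interferon gamma, changed its call with NC 3. It measured 32.5, 33.7 and 16.8 across NC and 23.5, 22.6 and 23.2 across tRF-Val. Over all libraries the log2 fold change was -0.19 (adjusted p 0.670 by limma). Without NC 3 Wars fell, with a log2 fold change of -0.50 and an adjusted p of 0.0458, in a fit that called 3.04% of all genes lower. Without NC 1 or NC 2 it was -0.045 and -0.020. Means of the other cytosolic enzymes in NC and tRF-Val were 48.6 and 48.6 for Aars (alanine), 115 and 102 for Eprs (the fused glutamate and proline enzyme), 72.2 and 82.8 for Hars (histidine), 68.2 and 63.5 for Lars (leucine), 116 and 117 for Sars (serine), 67.4 and 66.7 for Tars (threonine) and 41.9 and 55.8 for Yars (tyrosine). Their fold changes reached from -0.19 (Eprs, -0.11 without NC 3) to 0.46 (Yars, 0.17 without NC 3).

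The scaffolds of the multisynthetase complex had fold changes of 0.38 for Aimp1, 0.30 for Aimp2 and 0.02 for Eef1e1, and none passed. Aimp1, whose protein is also the precursor of a secreted cytokine, measured 93.6, 110 and 102 across NC and 113, 143 and 146 across tRF-Val (adjusted p 0.180 by limma). Aimp2 measured 94.0, 93.8 and 92.7 across NC and 107, 133 and 109 across tRF-Val (adjusted p 0.210 by limma). Each tRF-Val library thus lay above each NC library in both genes. Their transcripts are short, with mean lengths of 1126 and 1143 bases, and with trends against transcript length and GC content taken out of each library, their fold changes were 0.05 and -0.22. Eef1e1 was at 22.8 to 25.3 in NC and 24.1 to 24.7 in tRF-Val, the narrowest range of the 3. Over the 11 members of the complex, enzymes and scaffolds, 6 fold changes were positive and the median was 0.02; over the 12 cytosolic genes outside it, 9 were positive and the median was 0.10. Without NC 3, which was lowest in 10 of these 12 genes, 5 were positive and their median was -0.14; within the complex 5 of 11 were positive and the median was -0.0037.

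**Figure D3:**
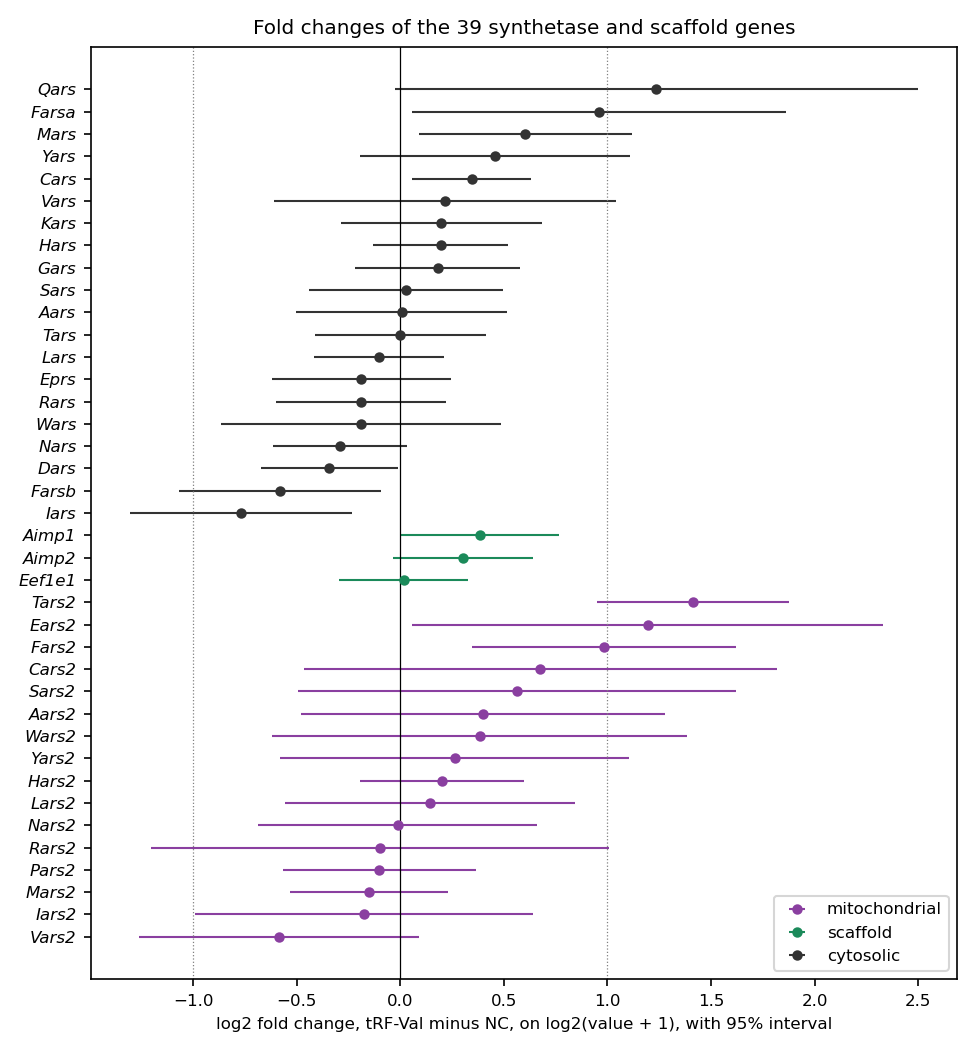
Log2 fold change of each member, tRF-Val minus NC on log2(value + 1), with its 95% interval from limma; dotted lines mark 2-fold. Tars2, at 1.41, has the largest fold change and Iars, at -0.77, the lowest.

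Mitochondrial enzymes were lower in level than their cytosolic counterparts in 15 of 16 pairs for the same amino acid, by a median factor of 16 and up to 55.5. Eprs served in the pairs for glutamate and for proline, and Farsa in that for phenylalanine. The exception was that last pair, in which Farsa was at 0.881 times the mean level of Fars2; the other subunit, Farsb, had a mean of 26.5 against 10.9 for Fars2. Of the 16 mitochondrial genes 10 had positive and 6 negative fold changes, from -0.59 to 1.41, with a median of 0.23, and of 0.20 relative to the median of all genes after rescaling without mitochondrially encoded transcripts. The sums over the 16 genes were 86.1, 84.4 and 76.3 for NC and 123, 112 and 99.4 for tRF-Val, so each tRF-Val sum was above each NC sum. Single genes weigh heavily in these sums. Means in NC and tRF-Val were 5.26 and 15.6 for Tars2, 7.03 and 14.7 for Fars2 and 3.03 and 7.46 for Ears2. With 6 of the 16 fold changes negative, the sums do not show a rise across the set. The median without NC 3 was 0.093, against -0.08 for all genes in that fit. The fold changes of the cytosolic and the mitochondrial enzyme for 1 amino acid had the same sign in 11 of 16 pairs, with Farsa taken for phenylalanine. Some of these signs belong to very small fold changes, such as 0.0004 for Tars, 0.007 for Aars and -0.013 for Nars2, and carry little information. Farsb had the opposite sign to Fars2.

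Tars2, the mitochondrial threonine enzyme, came nearest to the threshold. The gene (ENSMUSG00000028107.14) occupies bases 95739976 to 95760206 of chromosome 3 (GRCm38, minus strand). It measured 5.79, 4.11 and 5.87 across NC and 14.3, 17.8 and 14.7 across tRF-Val, with means of 5.26 ± 0.994 (SD, n = 3) and 15.6 ± 1.93 (SD, n = 3). NC 3 was level with NC 1, and all tRF-Val libraries were more than 2-fold above all NC libraries. The log2 fold change was 1.41 (SE 0.192, 95% interval 0.95 to 1.88), with an unadjusted p of 0.000235 and an adjusted p of 0.0556 by limma. It passed in 4 of 18 alternatives, among them the fit without NC 3 (fold change 1.49, adjusted p 0.0352), and over all alternatives the adjusted p reached 0.214 and the fold change lay between 1.15 and 1.58. The value was spread over 6 listed transcripts, of which the 16-exon one was at 1.71, 0.647 and 2.70 for NC and 4.63, 12.2 and 4.82 for tRF-Val. The cytosolic threonine enzyme Tars had a fold change of 0.00 (95% interval -0.41 to 0.41).

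Fars2 and Ears2 were the other mitochondrial genes with an unadjusted p under 0.05. Fars2, the mitochondrial phenylalanine enzyme, measured 9.23, 6.85 and 5.01 across NC and 15.8, 17.2 and 11.2 across tRF-Val (log2 fold change 0.98, adjusted p 0.101 by limma). Its groups did not overlap, and with the same trends taken out the fold change was 0.48. Ears2, the mitochondrial glutamate enzyme, measured 3.08, 5.16 and 0.861 across NC and 4.94, 9.04 and 8.39 across tRF-Val, with overlap between NC 2 and tRF-Val 1. Its log2 fold change was 1.19 (adjusted p 0.167 by limma), and 0.72 without NC 3. Ears2 also charges the mitochondrial glutamine transfer RNA with glutamate, which the amidotransferase subunits Gatb, Gatc and Qrsl1 then convert. Gatb measured 1.39, 3.28 and 2.07 across NC and 3.84, 4.08 and 4.22 across tRF-Val (log2 fold change 0.68, adjusted p 0.144 by limma), while Gatc had 0.06 and Qrsl1 0.47. Without NC 3 these were 0.21 and 0.13.

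The remaining mitochondrial enzymes were at low levels and did not pass. Rars2 (arginine) measured 14.8, 18.2 and 20.2 across NC and 26.5, 21.9 and 7.36 across tRF-Val, so the tRF-Val libraries spanned the whole NC range. Means in NC and tRF-Val were 11.6 and 10.7 for Iars2, 7.53 and 8.46 for Yars2, 7.27 and 8.50 for Hars2, 5.08 and 7.13 for Sars2, 2.40 and 4.42 for Cars2 and 2.70 and 3.29 for Lars2. For Aars2 they were 2.31 and 3.05, for Nars2 2.67 and 2.58, for Wars2 2.06 and 2.62, for Pars2 2.05 and 1.85 and for Mars2 1.75 and 1.48. None of these had an unadjusted p under 0.05. In Sars2 and Aars2, NC 3 was at 1.73 and 0.739 while the other 5 libraries lay between 5.87 and 7.90 and between 2.74 and 3.45.

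NC 3 was the lowest of the 6 libraries in 19 of 39 members, against 42.7% of all genes tested. Of 9 members with a transcript GC content of at least 55%, NC 3 was lowest in 8, and of the other 30 in 11. Across the 39 members Spearman's rho between GC content and the difference of NC 3 from the mean of NC 1 and NC 2 was -0.52, and across all 10405 genes it was -0.65; genes of 1 library are not independent, so no p is given. Vars, at a GC content of 60.8%, lay on the low side of NC 3 together with Sars2 at 60.1% and Aars2 at 60.0%. Vars2, at 58.6%, did not. Among the cytosolic genes outside the multisynthetase complex, with a median GC content of 52.5%, NC 3 was lowest in 10 of 12, and within the complex, with a median of 48.4%, in 2 of 11. In the fit with each library's trend with length and GC content removed, 0 members passed by limma, against 0.538% of all genes, and 4 of 39 had an unadjusted p under 0.05, against 23.2%. The fold change of Vars was then 0.10. Across the 39 members rho between fold change and transcript length was -0.45, against -0.56 across all genes.

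**Figure D4:**
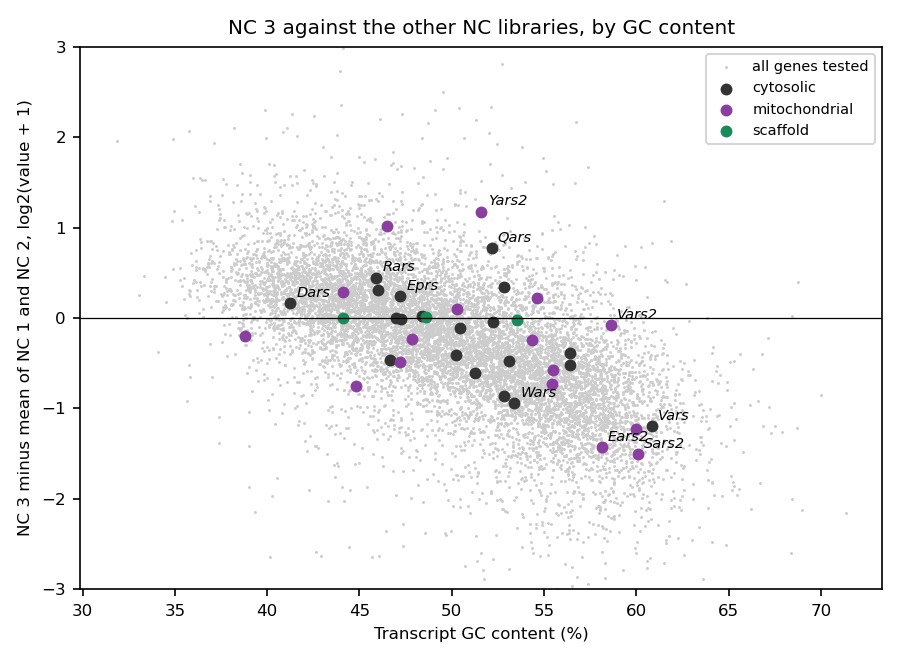
Difference of NC 3 from the mean of NC 1 and NC 2 on log2(value + 1), against transcript GC content in percent; grey points are all genes tested (38 lie outside the axis), coloured points the cytosolic enzymes, mitochondrial enzymes and scaffolds. Members at high GC content, such as Vars and Sars2, lie low, and Vars2 lies near 0.

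Promoters of 29 members were matched by symbol in RefSeq sequences of GRCm38.p6, as 31 windows from 250 bases before to 50 after a start. The CARE element, searched as TGATGNAA on both strands, was found in 5 of 31 windows, against 3.97% of all 32851 windows of that length. The 5 genes, Gars, Aars, Yars, Tars and Iars, are all cytosolic enzymes: 5 of 12 cytosolic windows held it, and 0 of 15 mitochondrial and 0 of 4 scaffold windows did. The 12 windows cover only some of the 20 cytosolic enzymes, and promoters of the others were not searched. These windows are shown because ATF4 is the known regulator of this group. Each is written 5′ to 3′ on the strand of the gene, with every match in capitals. In Yars the match lies on the strand of the gene. In the other 4 genes matches lie on the opposite strand, so that there the capitals show the reverse complement. Aars holds a match that begins at -112 relative to the start and another at 10. Those of Yars and Iars begin at 4 and 8, also after the start, and those of Gars and Tars at -30 and -15.
Gars (chr6:55037751-55038050, plus strand): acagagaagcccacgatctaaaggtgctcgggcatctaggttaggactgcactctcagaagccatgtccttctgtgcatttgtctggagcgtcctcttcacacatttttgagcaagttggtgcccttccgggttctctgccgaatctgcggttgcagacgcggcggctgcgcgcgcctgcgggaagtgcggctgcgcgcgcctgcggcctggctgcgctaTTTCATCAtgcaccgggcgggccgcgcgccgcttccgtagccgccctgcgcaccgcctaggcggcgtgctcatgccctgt
Aars (chr8:111033592-111033891, plus strand): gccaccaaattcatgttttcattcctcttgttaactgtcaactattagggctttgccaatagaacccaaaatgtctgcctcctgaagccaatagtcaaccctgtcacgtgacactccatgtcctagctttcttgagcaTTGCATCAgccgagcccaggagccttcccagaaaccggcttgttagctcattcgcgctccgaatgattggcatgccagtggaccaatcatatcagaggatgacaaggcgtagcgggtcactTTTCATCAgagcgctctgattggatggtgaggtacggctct
Yars (chr4:129189653-129189952, plus strand): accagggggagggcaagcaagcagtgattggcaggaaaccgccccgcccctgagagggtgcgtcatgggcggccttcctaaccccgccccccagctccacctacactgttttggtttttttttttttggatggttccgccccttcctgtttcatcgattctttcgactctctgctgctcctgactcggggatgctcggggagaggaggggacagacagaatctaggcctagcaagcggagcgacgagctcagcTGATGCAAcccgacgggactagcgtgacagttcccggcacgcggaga
Tars (chr15:11399609-11399908, minus strand): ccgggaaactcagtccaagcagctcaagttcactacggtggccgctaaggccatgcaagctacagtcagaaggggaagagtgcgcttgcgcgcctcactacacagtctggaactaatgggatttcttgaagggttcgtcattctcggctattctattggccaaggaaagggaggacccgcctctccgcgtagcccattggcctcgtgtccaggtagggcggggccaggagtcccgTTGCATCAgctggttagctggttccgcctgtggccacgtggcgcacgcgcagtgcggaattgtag
Iars (chr13:49681880-49682179, plus strand): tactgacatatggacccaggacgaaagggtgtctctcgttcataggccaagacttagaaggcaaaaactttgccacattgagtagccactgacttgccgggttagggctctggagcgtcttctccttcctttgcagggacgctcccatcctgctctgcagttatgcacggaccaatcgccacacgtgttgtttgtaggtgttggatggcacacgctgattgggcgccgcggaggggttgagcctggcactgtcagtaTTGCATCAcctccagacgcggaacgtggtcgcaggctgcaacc
The E-box CACGTG, a palindrome, was also found in 5 of 31 windows (Farsb, Ears2, Aars, Iars and Tars), against 7.15% of all windows, and overlapped a CARE match in 0 windows. A match of letters does not show that a factor binds there.

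The 5 genes with a CARE match did not share a direction. Their log2 fold changes were 0.18 for Gars, 0.01 for Aars, 0.46 for Yars, 0.00 for Tars and -0.77 for Iars, and none passed. Without NC 3, Aars was at -0.17 and Tars at -0.15. Yars measured 46.2, 52.9 and 26.7 across NC and 50.2, 56.5 and 60.9 across tRF-Val, and the fold change was 0.17 without NC 3. Of 24 genes of the amino acid response, 0 passed over all libraries, 11 had positive fold changes and the median was -0.06. Atf4 itself measured 215, 211 and 102 across NC and 223, 259 and 273 across tRF-Val (fold change 0.59, adjusted p 0.260 by limma), and its fold change was 0.23 without NC 3. NC 3 was the lowest library in 17 of the 24 genes. Without NC 3, 6 of the 24 passed by limma, 5 of them lower and 1 higher, in a fit that called 3.04% of all genes lower and 2.75% higher. Over all libraries the smallest p-values belonged to Nupr1, Cebpb and Slc38a2, an amino acid transporter, with fold changes of 0.81, 1.01 and -0.50. These were 0.11, 0.25 and -0.025 with the trends against length and GC content taken out. Among those that passed without NC 3, Chac1, which degrades glutathione, had a fold change of -1.04 (adjusted p 0.0326 by limma). Slc7a5, the transporter of large neutral amino acids such as valine, had -0.52 (adjusted p 0.0496 by limma). The 1 higher gene was Cebpb, at 0.68. Over all libraries Chac1 was at -0.29 and Slc7a5 at -0.073 (adjusted p 0.776 and 0.909 by limma). With the same trends taken out these were -0.79 and -0.13, and neither passed.

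Other factors of aminoacylation had mostly positive fold changes. Of 14 such genes 13 were positive, against 51.1% of all genes, with a median of 0.40. Over all libraries 0 passed, and 5 had an unadjusted p under 0.05 by limma with higher values in tRF-Val, against 12.2% of all genes. Ptrh2, a peptidyl-tRNA hydrolase, measured 13.9, 14.3 and 9.01 across NC and 20.3, 24.3 and 24.2 across tRF-Val (log2 fold change 0.86, adjusted p 0.0929 by limma). Pstk, which makes the phosphorylated intermediate of selenocysteine transfer RNA, measured 10.6, 11.1 and 10.1 across NC and 15.0, 16.9 and 16.6 across tRF-Val, with NC 3 close to the other NC libraries. Prorsd1 had a fold change of 0.73. Without NC 3 the median of the 14 genes was 0.26 and 12 were positive. Only Ptrh2 passed there (fold change 0.66, adjusted p 0.0487 by limma), in a fit that called 2.75% of all genes higher. The transcripts of these 14 genes are short, with a median length of 1889 bases against 2795 bases over all genes, and their median was 0.27 once trends with length and GC content were removed.

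The elongation factor partners of Vars were Eef1a1, Eef1b2, Eef1d and Eef1g, and 0 of 4 passed. Their fold changes were 0.13, 0.47, 0.28 and 0.38, with a median of 0.33. With those trends taken out the median was 0.10 and Eef1d was at -0.19. Without NC 3 the median was 0.36, with Eef1b2 at 0.64, Eef1d at 0.48, Eef1g at 0.23 and Eef1a1 at 0.075. Of 15 genes of branched-chain amino acid breakdown, the route by which valine is degraded, 0 passed, 11 had positive fold changes and the median was 0.27. Acadsb, an acyl-CoA dehydrogenase of isoleucine breakdown, measured 5.40, 6.21 and 5.57 across NC and 0.626, 2.68 and 1.77 across tRF-Val (log2 fold change -1.40, adjusted p 0.0892 by limma), with no overlap between the groups. Echs1, an enoyl-CoA hydratase, and Bckdhb, a subunit of the branched-chain dehydrogenase, had fold changes of 0.87 and 0.39, which were 0.47 and 0.29 without NC 3 and 0.61 and 0.11 with trends against length and GC content taken out. With these taken out Acadsb was at -0.88.

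Exons of 15 of the 39 members overlap those of another gene in the annotation, in each case with a gene on the opposite strand and for Aars also with Exosc6 on the same strand. Among them are Hars and Hars2, which overlap each other, Mars with Ddit3, Aimp2 with Eif2ak1 and Fars2 with Lyrm4. The library kit marks strand, but whether the authors' abundance estimates used it is not given in the sources used here, so the values of these 15 genes are uncertain to that extent. Vars and Tars2 had no such overlap, and Vars2 overlaps the predicted gene Gm20483.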

How the data were processed

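Total RNA of 6 libraries of BUMPT cells was sequenced; groups and replicate numbers come from the sample titles. Per the labels' protocols a stranded kit with dUTP was used; the same text describes joint tissue, while each sample is labelled as a kidney cell line. The submitters' processing notes name HISAT2 2.1.0, StringTie and cutadapt, and the human build GRCh38. The deposited values are a signal (abundance) per transcript from the authors; FPKM or TPM is not stated, and depth is unknown. Of 30813 rows, the 9210 with human IDs were not used; 21558 of 21603 mouse IDs matched GENCODE M21 on GRCm38 without version. Each mouse row reaches a mean of 0.5 in at least 1 group, so sums hold no transcript below that level in both groups. Transcripts below it in only 1 group are included.

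Values were added per symbol (11236), genes with a mean of at least 1 were kept (10405), and limma 3.58.1 (R 4.3.3) was run on log2(value + 1) (trend, robust, no covariate, two-sided, Benjamini-Hochberg over all genes, threshold 0.05). The fit was tested on simulated data. No exact permutation p is given, since 3 against 3 libraries reach 0.1 at the lowest. Named in full are the valine enzymes, the 10 members with the smallest p, the 5 with the highest mean and the scaffolds; of each other list at most 3 genes with the smallest p, while the remaining eEF1 gene, Atf4, Gatb, Gatc, Qrsl1, Chac1, Slc7a5, Wars, Qars, Yars, Sars2, Aars2 and Rars2 were chosen after their values were seen. Members and lists were chosen with earlier results of these data known. One marker gene of the proximal tubule list is not reported here and was left out of its sum. Alternatives were 2 pseudocounts, 2 filters, 3 scalings, 2 kinds of moderation, a block for replicate number, omission of each library in turn, single transcripts, removal of loess trends (span 0.3) with length and GC content, and, added after seeing the data, that correction without NC 3.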

Additional observations from a re-analysis of the deposited data

How the results depend on the processing

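No member passed in 14 of 18 fits over genes beside the one reported, nor over single transcripts; 1 member, Tars2, passed after rescaling without mitochondrially encoded transcripts, without trend, and with correction for length and GC content without NC 3, and 2, Tars2 and Wars, without NC 3. Leaving out single libraries gave 0 to 2 members. Over all genes 27 passed; the number was 5 and 0 with pseudocounts of 0.1 and 0.01 (2798 at an unadjusted p under 0.05 with 0.01), 2 with a minimum mean of 5, 71 with quantile normalization, 208 after rescaling without mitochondrially encoded transcripts, 45 without trend, 56 with correction for length and GC content, 115 with that correction without NC 3, and 3 to 602 when a library was left out, 602 being without NC 3. The fold change of Vars was -0.18 to 0.42 when a library was left out, -0.031 after rescaling without mitochondrially encoded transcripts and -0.091 for its 29-exon transcript alone; that of Vars2 was -0.78 to -0.32 when a library was left out, and could not be had with a minimum mean of 5. The median of the cytosolic enzymes was -0.15 with quantile normalization, -0.23 after that rescaling and -0.10 to 0.13 when a library was left out. The mitochondrial median was 0.41 with a minimum mean of 5, 0.0046 after that rescaling and 0.093 to 0.34 when a library was left out. The rescaling moved the median of all genes by -0.21. Aimp2 was at -0.22 and, without NC 3, at -0.027 with correction for length and GC content. The causes were not tested. With the replicate block 0 of all genes passed by limma (2455 at an unadjusted p under 0.05), and the adjusted p of Tars2 was 0.190; same-numbered libraries had correlations of deviations of -0.030, 0.016 and -0.0095, so the numbers give no pairing.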
